A study of Mus musculus with 8 samples.

Results

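The response to TGF-b was read in mouse CD4 T cells that lacked Smad2 and carried 1 functional copy of Smad3, from 2 of the 8 Affymetrix arrays of the study, 1 array of cells cultured with TGF-b and 1 of cells cultured without. These 2 arrays had a high background, so a gene was kept only if at least 2 of its probe sets were above 2 times the median signal of the pair on either array. It was then read only if its 2 brightest probe sets changed in the same direction. Of 18193 genes on the array with an unambiguous name, 3205 were kept and 1756 were read: 727 were higher in both probe sets with TGF-b (22.7% of the kept genes) and 1029 were lower in both (32.1%). The ratios of this pair chose the genes and are given as values with no test. The test of the mean response uses only the arrays of the other genotypes, which had no part in the choice, on the probe sets brightest in this pair. A further fit takes in all 8 arrays and is no independent test of the members.

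The cells were naive splenic CD4 T cells of C57BL/6J mice, sorted as negative for CD25, low for CD44 and high for CD62L. The 4 genotypes were Smad2KO_Smad3het (a T cell-specific conditional deletion of Smad2 together with 1 disrupted allele of Smad3), Smad3KO (both alleles of Smad3 disrupted), Smad2KO (the T cell-specific deletion of Smad2 alone) and wild type (WT). The labels say that the Smad2KO_Smad3het cells stood in for cells lacking both Smads, so 1 Smad3 allele remained in them. All cultures, with and without TGF-b, ran for 24 h with anti-CD3e and anti-CD28 (1 ug/ml of either), anti-IL-4 and anti-IFN-g (10 ug/ml of either) and IL-2 (10 ng/ml). TGF-b was added at 2 ng/ml to 1 culture of each genotype. With 1 array a group there is no replicate error within a genotype, and the labels do not say whether cultures came from separate animals.

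TGF-b binds a receptor complex of 2 serine/threonine kinases, and the activated type I receptor phosphorylates Smad2 and Smad3. These pair with Smad4, enter the nucleus and change transcription; Smad3 binds DNA directly, at short elements that hold the sequence CAGAC. Smad7, Skil and Pmepa1 are induced by the pathway and restrain it. In CD4 T cells TGF-b is known for inducing Foxp3, the defining factor of regulatory T cells, and for lowering IL-2 production and effector cytokines.

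Both Smad2KO_Smad3het arrays differed from the rest of the study in their signals as a whole. Spearman's rank correlation over all probe sets was 0.853 between the pair, 0.660 to 0.693 between either of them and another array, and 0.907 to 0.928 among the other 6. The 98th percentile of the signals lay above their median by a log2 ratio of 4.79 and 4.85 on the arrays with and without TGF-b, against 6.81 to 7.07 on the other 6. After scaling to an equal trimmed mean, the median signal was 90.9 and 88.0 with and without TGF-b, against 26.2 to 30.4 elsewhere. The floor of each pair, set at its median, was 89.6 in Smad2KO_Smad3het, 26.4 in Smad3KO, 26.8 in Smad2KO and 29.8 in WT. Of the markers listed for CD4 T cells, 12 of 12 measured were bright in Smad2KO_Smad3het. Their summed signal was 29069 with and 29323 without TGF-b, against 35598 to 39945 on the other 6. Most of them are shared by CD4 and CD8 T cells, so they do not check the CD4 label. Cd4 itself read 1918 with and 895 without TGF-b in Smad2KO_Smad3het, against 1151 to 1397 on the other 6. Markers of other cells were also brighter there, though in 2 lists 0 markers were bright. For 3 gamma-delta T cell markers the sum was 77.6 with and 292 without TGF-b (49.3 to 74.6 on the other 6). For 5 erythroid and platelet markers it was 277 and 346 (44.8 to 85.8). The summed signal with and without TGF-b was 8333 and 8874 for 10 myeloid markers (114 to 200 on the other 6 arrays), 4663 and 1277 for 8 dendritic cell and MHC class II markers (182 to 363), 1347 and 1049 for 2 CD8 T cell markers (58.1 to 137), 1030 and 702 for 7 B cell markers (80.6 to 117), 826 and 363 for 4 NK cell markers (14.1 to 76.5), and 5477 and 3928 for 19 markers of organs outside the immune system (1333 to 1664). Within the lists the members did not go together: Csf1r read 6589 and 6146 while Itgam read 13.4 and 2.80, H2-Ea read 2736 and 191 while H2-Eb1 read 7.67 and 5.25, and Pax5 read 681 and 361 while Ms4a1 read 12.2 and 17.2. Cd8a read 1336 and 915 (11.3 to 80.1 on the other 6 arrays) while Cd8b1 read 11.3 and 134. The part of these signals in the results below was not tested. A different number of cells of a type cannot be told apart here from a different amount of RNA per cell or from the high background of these arrays. Smad2, on its bright probe set, read 596 and 648 with and without TGF-b in Smad2KO_Smad3het, 817 and 846 in Smad3KO, 891 and 983 in Smad2KO, and 878 and 910 in WT. Smad3 read 352 and 151 with and without TGF-b in Smad2KO_Smad3het, 622 and 523 in Smad3KO, 372 and 153 in Smad2KO, and 467 and 127 in WT. The labels do not say whether these probe sets lie in the deleted parts, so they do not check the genotypes.

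The agreement between the 2 probe sets of a gene was counted in each pair, with no test. Of 3205 genes kept in Smad2KO_Smad3het, 1756 (54.8%) changed in the same direction in both, against 2847 of 4397 (64.7%) in Smad3KO, 2954 of 4440 (66.5%) in Smad2KO and 2948 of 4353 (67.7%) in WT by the same rule. Genes higher in both probe sets were 30.5% in Smad3KO, 32% in Smad2KO and 31.4% in WT, and genes lower in both 34.2%, 34.5% and 36.3%. Across genes, which are not replicates, Pearson's correlation between the ratios of the 2 probe sets was 0.0597 in Smad2KO_Smad3het, 0.621 in Smad3KO, 0.665 in Smad2KO and 0.681 in WT. Any further bright probe set, which the rule did not use, moved in the direction of the other 2 in 497 of 870 cases (57.1%) in Smad2KO_Smad3het, against 67.2%, 69.5% and 71.7% in Smad3KO, Smad2KO and WT. Among genes at 2-fold it did so in 8 of 11 cases in Smad2KO_Smad3het and in 41 of 41, 83 of 85 and 95 of 99 cases in Smad3KO, Smad2KO and WT. Most members changed by little. Taking the lesser of the 2 log2 ratios of a gene, the median was 0.17 among the 727 higher genes, with quartiles of 0.08 and 0.35, and −0.16 among the 1029 lower genes, with quartiles of −0.29 and −0.07.

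**Figure D1:**
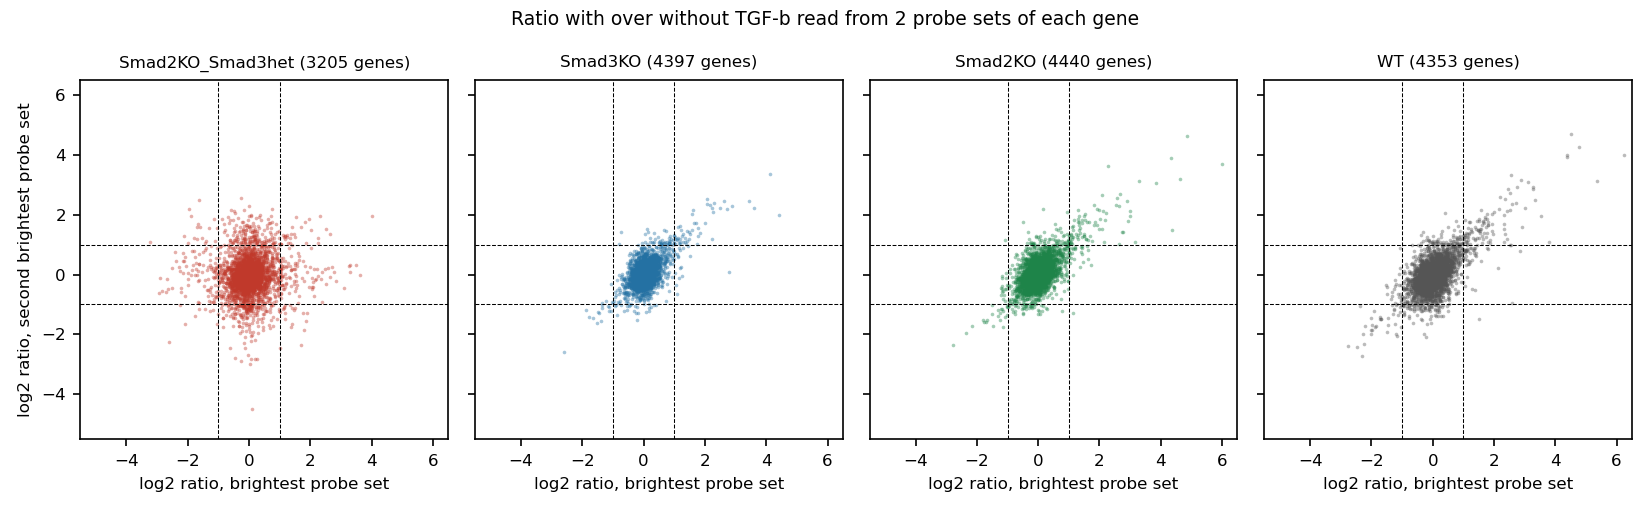
Each point is a kept gene, placed by the log2 ratio with over without TGF-b of its brightest probe set (horizontal axis) and its second brightest (vertical axis), 1 panel a genotype, with dashed lines at 2-fold. The Smad2KO_Smad3het points form a cross with a correlation of 0.0597, while those of Smad3KO, Smad2KO and WT lie along the diagonal.

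At 2-fold or more in both probe sets, 30 genes were higher with TGF-b in Smad2KO_Smad3het (0.936% of the 3205 kept) and 10 were lower (0.312%), called rises and falls here with no test implied. The same rule gave 53 higher and 14 lower in Smad3KO (1.21% and 0.318%), 80 and 22 in Smad2KO (1.8% and 0.495%) and 100 and 35 in WT (2.3% and 0.804%). Another 37 genes of Smad2KO_Smad3het had 1 probe set at least 2-fold higher and the other at least 2-fold lower, against 0, 2 and 1 in Smad3KO, Smad2KO and WT. Just inside the 2-fold line lay Syt11, Rngtt, Ikzf4, Ahdc1 and Msx1, with lesser log2 ratios of 1.00 to 1.05, and just outside it Id2, Jmjd4, Bmpr2, Nes and Usf1, with 0.98 to 0.89. The lesser ratios of Rngtt and Ikzf4 are lower bounds, since the signals without TGF-b behind them were under the floor. On the side of the falls, Wdr73, Laptm4b, Snhg10, Afp and Hecw1 lay just inside at −1.01 to −1.15 and Cox10, Ighm, Cd151, Flnc and Ttn just outside at −0.96 to −0.92.

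Of the 30 rises, 9 were also at 2-fold in both probe sets of Smad3KO, Smad2KO and WT, each pair read by its own brightest probe sets: Adam19, Fam241a, Igfbp4, Ikzf4, Irf8, Mapkapk3, Mical1, Socs2 and Vim. Capg was at 2-fold in Smad3KO and Smad2KO, and the other 20 were at 2-fold in none of the other genotypes. Counted by pair, 17 of the 30 were also kept in the other genotypes, and of these 17 the number at 2-fold was 10 in Smad3KO (58.8%), 10 in Smad2KO (58.8%) and 9 in WT (52.9%). Taken from the other side, these were 30.3% of the 33 rises of Smad3KO that were kept in Smad2KO_Smad3het, 25% of the 40 of Smad2KO and 19.6% of the 46 of WT. No gene was at 2-fold in opposite directions in Smad2KO_Smad3het and another genotype.

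Socs2, a suppressor of cytokine signalling that is induced by STAT5, had the highest lesser ratio of the 30. On its brightest probe set it read 1012 with and 202 without TGF-b in Smad2KO_Smad3het, 722 and 96.8 in Smad3KO, 2637 and 130 in Smad2KO, and 2830 and 104 in WT. The second probe set read 692 with and 176 without in Smad2KO_Smad3het, so the rise was 5.01-fold and 3.92-fold, and another bright probe set, which the rule did not use, read 189 and 179. On the first 2 every array with TGF-b was above every array without it, and the levels with TGF-b were lower in Smad2KO_Smad3het and Smad3KO than in Smad2KO and WT. The mean log2 ratio of the same 2 probe sets was 2.15 in Smad2KO_Smad3het, 2.60 in Smad3KO, 4.11 in Smad2KO and 4.51 in WT. Igfbp4, a secreted binder of insulin-like growth factors, read 7125 with and 1827 without TGF-b in Smad2KO_Smad3het on its brightest probe set, 4434 and 1063 in Smad3KO, 6229 and 1467 in Smad2KO, and 6340 and 1069 in WT. It had 6 bright probe sets, all higher with TGF-b, at 2.76-fold to 5.17-fold in Smad2KO_Smad3het. On the brightest of them both Smad2KO_Smad3het levels were above those of the other genotypes under the same treatment.

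Vim, which encodes the intermediate filament protein vimentin, read 1411 with and 488 without TGF-b in Smad2KO_Smad3het, against 2783 and 535 in Smad3KO, 2132 and 425 in Smad2KO, and 3471 and 523 in WT. Irf8, a transcription factor of the interferon regulatory family, read 942 with and 415 without TGF-b in Smad2KO_Smad3het, 4557 and 1027 in Smad3KO, 4001 and 534 in Smad2KO, and 5693 and 776 in WT. Mapkapk3, a kinase that acts downstream of p38, read 1583 with and 626 without in Smad2KO_Smad3het, 2038 and 686 in Smad3KO, 3989 and 860 in Smad2KO, and 4209 and 707 in WT. On these brightest probe sets the level with TGF-b was lowest in Smad2KO_Smad3het among the 4 genotypes, while on the second probe set of Mapkapk3 it was 1332, against 1314 in Smad3KO. Capg, an actin filament capping protein, read 4646 with and 1297 without TGF-b in Smad2KO_Smad3het, 2415 and 603 in Smad3KO, 5534 and 891 in Smad2KO, and 5387 and 902 in WT. Its second probe set read 401 and 194 in Smad2KO_Smad3het but 58.6 with and 114 without in WT, in the opposite direction to the first. Mical1, an enzyme that oxidises actin, read 337 with and 132 without in Smad2KO_Smad3het, 396 and 171 in Smad3KO, 469 and 182 in Smad2KO, and 539 and 163 in WT, so its mean log2 ratio was 1.35 in Smad2KO_Smad3het, 1.27 in Smad3KO, 1.43 in Smad2KO and 1.69 in WT.

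Adam19 and Ikzf4 sat near the floor. Adam19, a membrane metalloprotease, read 429 with and 87.4 without TGF-b in Smad2KO_Smad3het, 430 and 35.1 in Smad3KO, 832 and 58.1 in Smad2KO, and 1210 and 19.8 in WT. Its value without TGF-b was under the floor of the Smad2KO_Smad3het pair, so its rise there was at least 4.79-fold and at least 2.08-fold on the 2 probe sets. Ikzf4, which encodes Eos, a partner of Foxp3, read 242 with and 119 without in Smad2KO_Smad3het, 315 and 104 in Smad3KO, 372 and 131 in Smad2KO, and 521 and 94.0 in WT. Fam241a read 472 with and 210 without in Smad2KO_Smad3het, 697 and 258 in Smad3KO, 841 and 248 in Smad2KO, and 1004 and 234 in WT. On these brightest probe sets the Smad2KO_Smad3het array with TGF-b was the lowest of the arrays with TGF-b, in Adam19 level with Smad3KO. The second probe sets of Adam19 and Ikzf4 did not share that order: with TGF-b, Adam19 read 186 in Smad2KO_Smad3het against 123 in Smad3KO, and Ikzf4 read 181 in Smad2KO_Smad3het against 177 in Smad2KO.

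**Figure D2:**
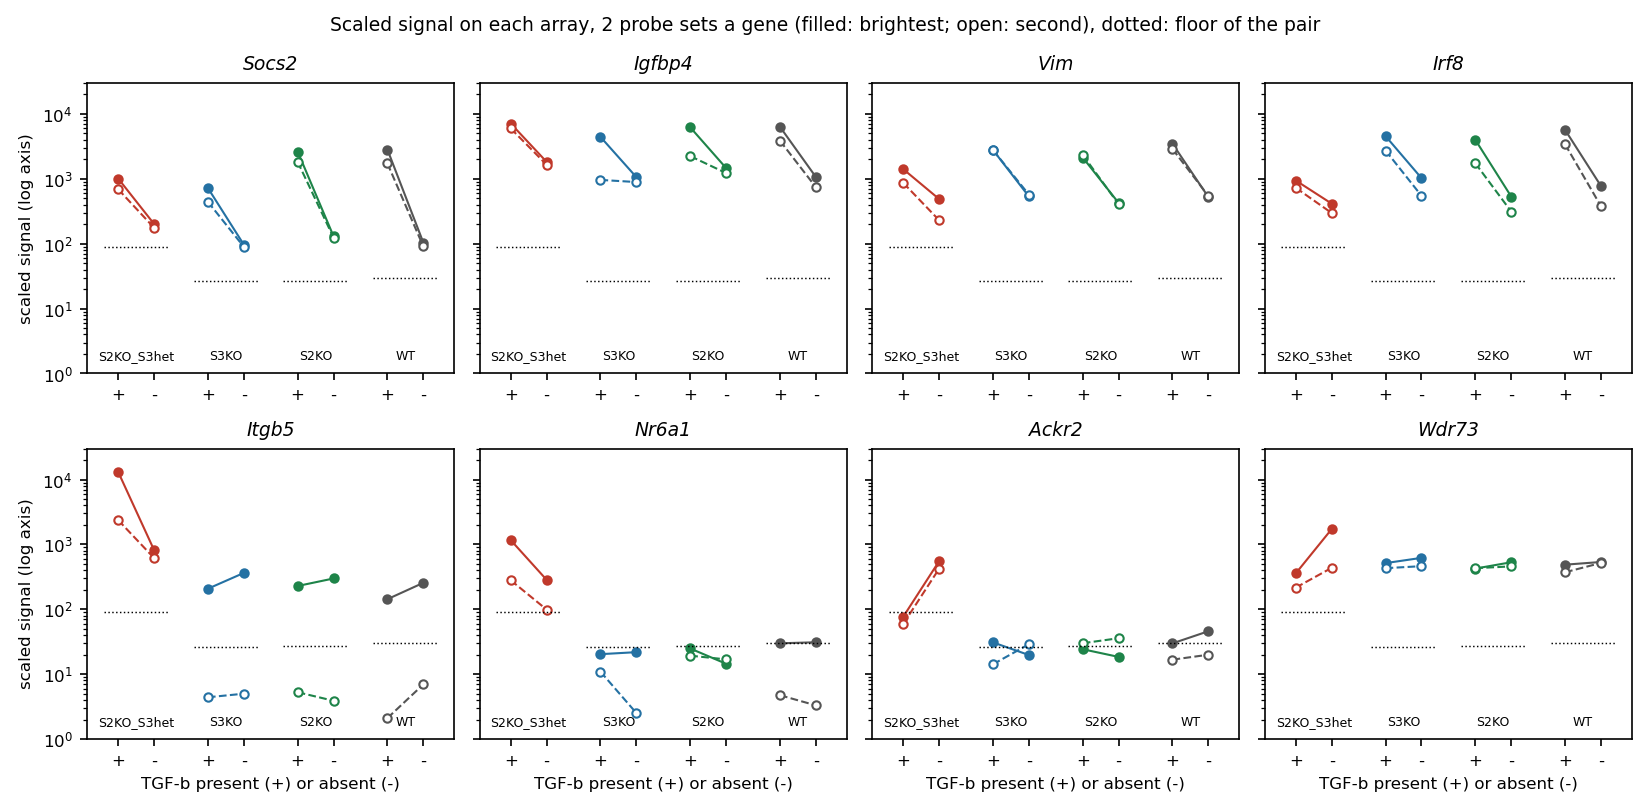
Scaled signal on each of the 8 arrays (log axis) with (+) and without (-) TGF-b in Smad2KO_Smad3het (S2KO_S3het), Smad3KO (S3KO), Smad2KO (S2KO) and WT, for 4 genes at 2-fold in every genotype (top) and 4 at 2-fold in Smad2KO_Smad3het alone (bottom). Filled and open points are the brightest and second probe set, and dotted lines mark the floor of each pair. In the top row every pair slopes the same way, while in the bottom row Itgb5 reads 13134 and 820 in Smad2KO_Smad3het and 143 to 363 on the other arrays.

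Because these 9 genes moved together in 4 genotypes, their promoters were searched for CAGAC, the Smad3-binding letters, on both strands. RefSeq promoters of assembly GRCm38.p6, running from 250 bases before to 50 after a gene's start, were given for 7 of the 9 genes, with 11 promoters in all. CAGAC was present on either strand in 7 of the 11 (63.6%), against 16292 of 32851 (49.6%) of all mouse promoters of the same length. The matches lay in every promoter of Adam19, Fam241a and Mical1 and in 1 promoter each of Irf8 and Mapkapk3. Adam19 had more promoters than any other of these genes. Promoters of the same gene are not independent, and the shares carry no test. The promoters of the 2 matched genes with the highest lesser ratios are shown, both on the plus strand and in lower case: Igfbp4 at chr11:99040994-99041293 and Vim at chr2:13574061-13574360. Both windows hold 0 matches, so no letters are in capitals. A match is a description of letters, and no match says only that these letters are not in this window.
Igfbp4: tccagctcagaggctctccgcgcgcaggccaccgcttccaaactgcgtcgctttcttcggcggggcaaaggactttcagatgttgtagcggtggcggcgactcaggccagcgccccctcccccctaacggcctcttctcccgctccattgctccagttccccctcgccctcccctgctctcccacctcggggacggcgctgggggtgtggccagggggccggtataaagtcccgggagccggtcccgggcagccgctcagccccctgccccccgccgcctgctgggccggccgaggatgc
Vim: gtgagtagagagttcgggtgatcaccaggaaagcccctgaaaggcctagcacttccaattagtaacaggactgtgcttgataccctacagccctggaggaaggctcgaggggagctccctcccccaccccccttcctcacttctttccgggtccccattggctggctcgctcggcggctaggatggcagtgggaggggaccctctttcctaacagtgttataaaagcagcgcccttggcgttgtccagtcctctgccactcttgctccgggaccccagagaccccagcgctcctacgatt

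Among the 20 rises at 2-fold in no other genotype, several were bright in Smad2KO_Smad3het and dim elsewhere. Itgb5, the integrin beta 5 chain, read 13134 with and 820 without TGF-b in Smad2KO_Smad3het on its brightest probe set and 2372 and 617 on the second, a rise of 16.0-fold and 3.84-fold. On the other 6 arrays the first probe set read 143 to 363 and was lower with TGF-b in each pair, and the second read 2.10 to 6.95, far under the floor. Nr6a1, an orphan nuclear receptor, read 1167 and 285 with and without TGF-b in Smad2KO_Smad3het, 20.4 and 21.9 in Smad3KO, 24.9 and 14.5 in Smad2KO, and 29.9 and 31.0 in WT. Both genes were thus brighter on each Smad2KO_Smad3het array than on any of the other 6. Tnfrsf19, a receptor of the TNF family, read 316 and 73.2 in Smad2KO_Smad3het, at least 3.53-fold, and 12.1 to 37.6 on the other 6 arrays. Bcl11a, a transcription factor of B cell and erythroid development, read 385 and 118 in Smad2KO_Smad3het and 4.27 to 13.5 elsewhere. Gulp1, an adaptor for engulfment, read 515 and 186 in Smad2KO_Smad3het and 1.72 to 13.9 elsewhere. Dact2, Ccdc74a, Slc35e4, Slc2a4 (the insulin-responsive glucose transporter GLUT4) and Epdr1 had the same form, with Smad2KO_Smad3het signals of 423 to 561 with TGF-b on the brightest probe set and of at most 55.2 elsewhere.

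Of the rest of the 20, Sh3bp5, Cdk16, Zdhhc5, Rngtt, Ccser2, Cog4 and Syt11 were kept in every genotype, and Ramp1, Msx1 and Ahdc1 in Smad2KO_Smad3het alone. Ramp1, a partner of the calcitonin-like receptor, read 443 with and 168 without TGF-b in Smad2KO_Smad3het, 563 and 123 in Smad3KO, 449 and 137 in Smad2KO, and 1262 and 173 in WT on its brightest probe set, while its second probe set was at 4.49 to 53.1 on the other 6 arrays. Sh3bp5, a binder of the kinase Btk, read 293 and 136 in Smad2KO_Smad3het, 87.7 and 49.0 in Smad3KO, 269 and 123 in Smad2KO, and 194 and 85.4 in WT. Both were higher with TGF-b in all 4 genotypes, without reaching 2-fold in both probe sets of another one. Cdk16, a cyclin-dependent kinase, read 503 and 105 in Smad2KO_Smad3het against 183 and 171 in Smad3KO, 169 and 190 in Smad2KO, and 191 and 191 in WT. Zdhhc5, a palmitoyltransferase, read 484 and 200 in Smad2KO_Smad3het against 372 and 322 in Smad3KO, 335 and 340 in Smad2KO, and 271 and 351 in WT. Rngtt, the mRNA capping enzyme, read 180 and 72.1 in Smad2KO_Smad3het, at least 2.01-fold, against 543 and 707 in Smad3KO, 581 and 443 in Smad2KO, and 488 and 517 in WT. On these probe sets the other pairs of the last 3 genes differed by little or in either direction. Another bright probe set of Cdk16, which the rule did not use, was higher with TGF-b in every pair. Its log2 ratio was 0.47 in Smad2KO_Smad3het, 0.19 in Smad3KO, 0.69 in Smad2KO and 0.59 in WT. Msx1, a homeobox transcription factor, read 1025 and 411 in Smad2KO_Smad3het and 19.7 to 67.4 on the other 6 arrays. With Ccser2, Cog4, Ahdc1 and Syt11 it made up the remainder, whose lesser log2 ratios were 1.00 to 1.26 in Smad2KO_Smad3het. The brightest probe sets of these 4, too, were dimmer on the other 6 arrays. Ccser2 read 6214 and 2203 in Smad2KO_Smad3het (35.0 to 60.7 on the other 6) and Cog4 672 and 284 (3.18 to 39.7). Ahdc1 read 520 and 253 (5.35 to 32.0) and Syt11 361 and 136 (27.4 to 65.8).

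The 10 falls held 1 gene shared with other genotypes, Afp, the fetal serum protein alpha-fetoprotein. Of its 5 bright probe sets in Smad2KO_Smad3het, 3 were lower with TGF-b and 2 were higher. The second brightest by the rule read 144 with and 318 without TGF-b in Smad2KO_Smad3het, 214 and 362 in Smad3KO, 242 and 475 in Smad2KO, and 190 and 377 in WT, so every array with TGF-b was below every array without it on that probe set. The 2 that went the other way, unused by the rule, read 204 with and 54.5 without TGF-b and 225 and 200 in Smad2KO_Smad3het, and 2.87 to 64.9 on the other 6 arrays. Psrc1, a protein of the mitotic spindle, read 173 and 393 in Smad2KO_Smad3het, 75.5 and 123 in Smad3KO, 72.8 and 92.0 in Smad2KO, and 50.9 and 96.3 in WT, lower with TGF-b in each pair. Of the 6 falls also kept in the other genotypes, Afp was at 2-fold in Smad3KO and WT (16.7% of the 6 in each) and none was in Smad2KO. Wdr73 read 358 and 1727 with and without TGF-b in Smad2KO_Smad3het, against 424 to 515 with and 531 to 621 without it on the other 6, so the array without TGF-b stood apart on this probe set. On the second it was the array with TGF-b that did, at 216 with and 436 without TGF-b in Smad2KO_Smad3het against 372 to 431 with and 459 to 518 without on the other 6. Ackr2, a chemokine-scavenging receptor, read 76.9 and 553 in Smad2KO_Smad3het, at least 6.17-fold lower, and 18.5 to 46.0 elsewhere. Serpina1b, a serum protease inhibitor, read 31.0 and 383 in Smad2KO_Smad3het, at least 4.27-fold lower, and at most 16.0 elsewhere. Snhg10, a noncoding RNA, read 409 and 844 in Smad2KO_Smad3het but was higher with TGF-b in Smad3KO (154 and 129), Smad2KO (122 and 83.6) and WT (123 and 105). Its other bright probe set went against this on both sides, at 318 and 218 in Smad2KO_Smad3het, 153 and 173 in Smad3KO, 140 and 160 in Smad2KO, and 131 and 153 in WT. Ulk4, Hecw1, Rdh14 and Laptm4b made up the rest, with lesser log2 ratios of −1.02 to −1.38. That of Rdh14 is a bound, since its signal with TGF-b was under the floor.

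**Figure D3:**
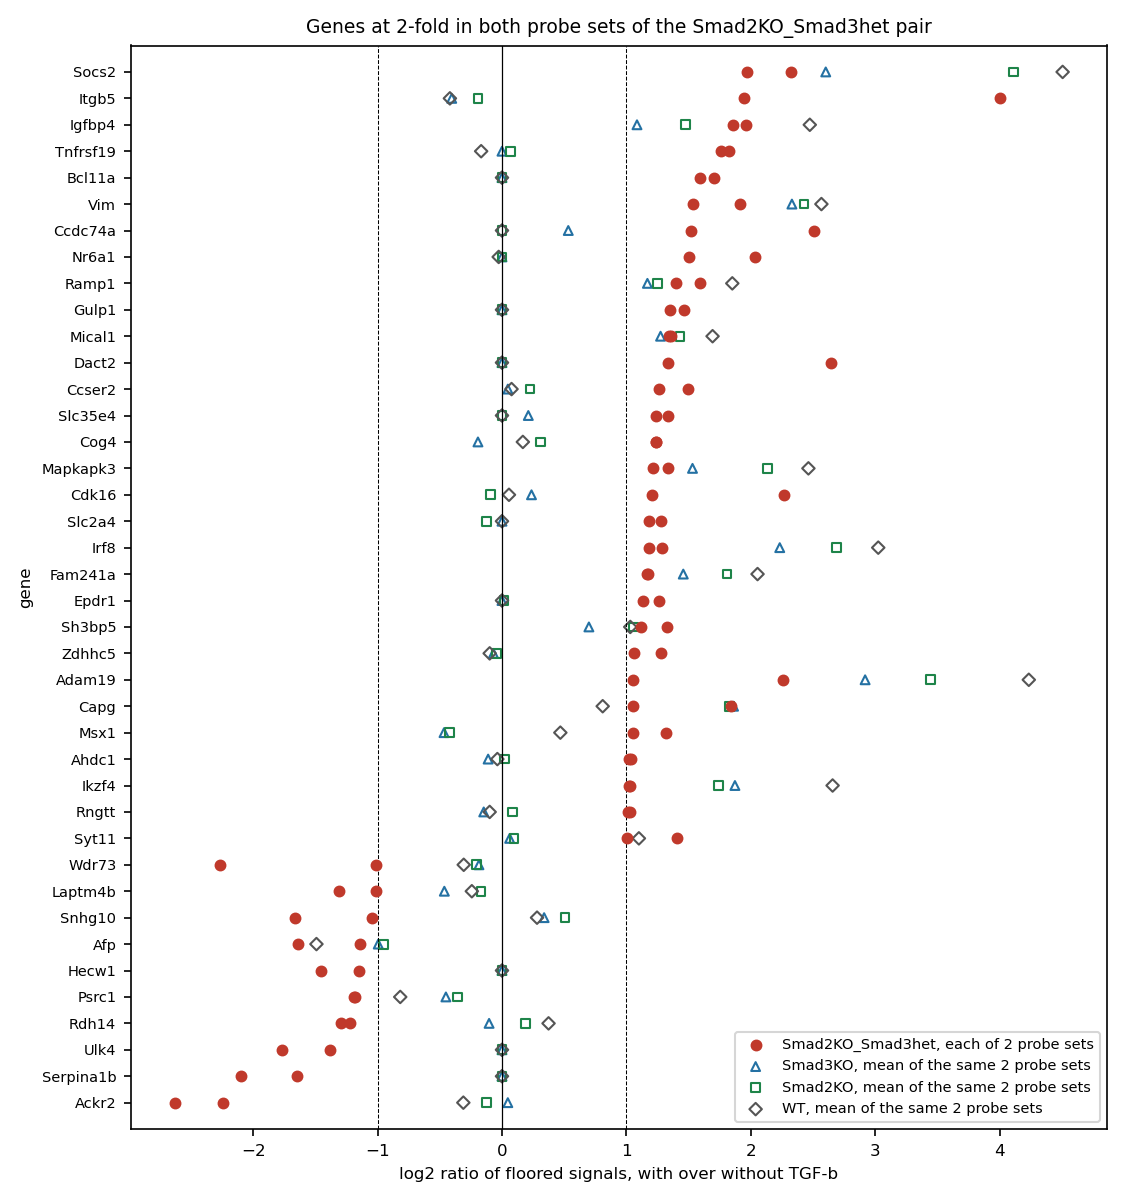
Log2 ratio with over without TGF-b (horizontal axis) of the 40 genes at 2-fold in both probe sets of the Smad2KO_Smad3het pair, 30 rises above and 10 falls below. Red points are the 2 probe sets in Smad2KO_Smad3het, and open symbols are the mean of the same 2 probe sets in Smad3KO, Smad2KO and WT. Socs2, Igfbp4, Vim, Irf8, Mapkapk3, Adam19, Mical1, Fam241a and Ikzf4 are beyond 2-fold in every genotype, while most other rises and falls have open symbols near 0.

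Both probe sets were dim (under 2 times the floor) on all of the other 6 arrays for 12 of the 29 rises and falls at 2-fold in no other genotype, for 19 of the 37 genes whose probe sets moved 2-fold in opposite directions, and for 161 of all 3205 kept. A probe set that is dim on a pair cannot reach 2-fold there, so the count for the 29 follows in part from how they were set apart. Probe sets marked by the manufacturer as matching several transcripts (suffix x or s) were 7 of 22 (31.8%) for the 11 genes at 2-fold in at least 2 other genotypes, 16 of 58 (27.6%) for the 29, 13 of 74 (17.6%) for the 37 and 1238 of 6410 (19.3%) for all kept genes. No test was run on these counts.

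The mean response of Smad3KO, Smad2KO and WT gave a test that used neither Smad2KO_Smad3het array. It was fitted with limma to the same probe sets over all genes, with Benjamini-Hochberg adjustment and 2 residual degrees of freedom, and called 426 of 9377 genes higher with TGF-b (4.54%) and 315 lower (3.36%). Of the 30 rises at 2-fold in Smad2KO_Smad3het, 22 could be tested, 12 were higher and 0 lower; the 12 were the 9 genes shared by every genotype, Capg, Ramp1 and Sh3bp5. Vim rose by 2.44 ± 0.07 on the log2 scale (SE; adjusted p = 8.13e-05, limma), Irf8 by 2.65 ± 0.14 (adjusted p = 0.000463, limma), Adam19 by 3.53 ± 0.24 (adjusted p = 0.000863, limma) and Socs2 by 3.74 ± 0.33 (adjusted p = 0.00215, limma), each in 3 of 3 genotypes. Of the 10 falls, 6 could be tested, 2 were lower and 0 higher: Afp fell by 1.15 ± 0.12 (adjusted p = 0.00412, limma) and Psrc1 fell by 0.54 ± 0.13 (adjusted p = 0.0497, limma), with Psrc1 past the threshold by little. Itgb5, at −0.34 ± 0.12, was not called (adjusted p = 0.141, limma). Without the Smad2KO pair the calls of Socs2, Igfbp4 and Capg were lost, without the WT pair that of Sh3bp5, and without any of the 3 pairs that of Psrc1. The brightest probe set alone lost the call of Socs2, no filter on dim genes those of Capg and Igfbp4, and a floor at the 75th percentile that of Sh3bp5. Each of these 3 settings, a floor at the 25th percentile and limma without trend and robust settings also lost that of Psrc1.

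Read over every member and not only those at 2-fold, 672 of the 727 genes higher in both probe sets of Smad2KO_Smad3het could be tested in the other 3 genotypes, of which 88 were called higher and 3 lower. Of the 1029 lower genes 1001 could be tested, and 62 were called lower and 12 higher. Among the 1449 genes whose probe sets disagreed, 1371 could be tested, and 42 were higher and 36 lower. Expressed against the 4.54% and 3.36% of all genes, calls in the matching direction were 13.1% of the tested higher members and 6.19% of the tested lower members, and calls in the opposite direction were 0.446% and 1.2%. Seen from the test, 142 kept genes were called higher in the other genotypes, and in Smad2KO_Smad3het 88 of them were higher, 12 lower and 42 discordant. Their median log2 ratio was 0.35 in Smad2KO_Smad3het and 0.68 in the mean of the other 3, and it was smaller in Smad2KO_Smad3het for 124 of the 142. These genes were picked on the other 3 genotypes, which raises the size of their ratio there, so these counts carry no test. Of 101 kept genes called lower, 62 were lower in Smad2KO_Smad3het, 3 higher and 36 discordant, with medians of −0.29 and −0.47, and the size was smaller in Smad2KO_Smad3het for 82. The compressed signal range of the Smad2KO_Smad3het arrays given above moved with this, and its part was not tested.

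Among the members with the smallest p in that test, several are known parts of the TGF-b pathway and of T cell growth. Pmepa1, an inhibitor of TGF-b signalling, read 450 with and 252 without TGF-b in Smad2KO_Smad3het, 861 and 141 in Smad3KO, 1003 and 161 in Smad2KO, and 1389 and 145 in WT. It rose by 2.69 ± 0.13 on the log2 scale in the other 3 (adjusted p = 0.000356, limma), and its log2 ratios in Smad2KO_Smad3het were 0.84 and 1.37. Tgfbr1, the type I receptor, read 620 and 200 in Smad2KO_Smad3het, 1638 and 389 in Smad3KO, 3531 and 365 in Smad2KO, and 3334 and 413 in WT. It rose by 2.71 ± 0.17 in the other 3 (adjusted p = 0.000707, limma), against 1.63 and 0.61 in Smad2KO_Smad3het. On these probe sets the array with TGF-b was lowest in Smad2KO_Smad3het among the arrays with TGF-b, but the second probe set of Tgfbr1 read 194 with TGF-b in Smad2KO_Smad3het against 180 in Smad3KO. Nt5e, which encodes the ecto-enzyme CD73, read 555 with and 506 without TGF-b in Smad2KO_Smad3het on 1 probe set, against 268 and 21.0 in Smad3KO, 245 and 13.3 in Smad2KO, and 520 and 32.8 in WT. On the other it read 295 and 48.1 in Smad2KO_Smad3het, 705 and 40.7 in Smad3KO, 694 and 27.9 in Smad2KO, and 1835 and 87.4 in WT. Its rise of 3.94 ± 0.12 in the other 3 (adjusted p = 8.13e-05, limma) stood beside log2 ratios of 0.13 and at least 1.72 in Smad2KO_Smad3het, where the 2 probe sets disagreed in size.

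Il2rb and Il2ra, chains of the IL-2 receptor, rose by 1.54 ± 0.08 (adjusted p = 0.000356, limma) and 0.98 ± 0.06 (adjusted p = 0.000707, limma) in the other 3 genotypes. Il2rb read 3483 with and 2148 without TGF-b in Smad2KO_Smad3het, 1075 and 388 in Smad3KO, 1479 and 471 in Smad2KO, and 1446 and 396 in WT, so it was brightest in Smad2KO_Smad3het with either treatment and changed least there. Il2ra read 1679 and 1147 in Smad2KO_Smad3het, 1933 and 1071 in Smad3KO, 2195 and 1192 in Smad2KO, and 2520 and 1171 in WT. Cpd (carboxypeptidase D), Pdgfb (a platelet-derived growth factor chain) and Hemk1 (a methyltransferase) rose by 1.88, 1.91 and 2.09 in the other 3 and had log2 ratios of 0.74 and 1.17, 1.05 and 0.20, and 1.58 and 0.40 in Smad2KO_Smad3het. All 5 were higher with TGF-b on every pair of arrays.

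The members with the smallest p among the falls were Slamf6, Snx9, Itm2a, Tespa1, Mndal, Ms4a6b, Mmd, Afp, Bcl2l11 and Plek. Slamf6, a costimulatory receptor of lymphocytes, read 767 with and 1301 without TGF-b in Smad2KO_Smad3het, 306 and 877 in Smad3KO, 369 and 1203 in Smad2KO, and 249 and 1198 in WT. It fell by 1.78 ± 0.12 in the other 3 (adjusted p = 0.000863, limma), against −0.76 and −0.53 in Smad2KO_Smad3het, where it stayed higher with TGF-b than in any other genotype. Bcl2l11, which encodes the death-promoting protein Bim, read 573 and 942 in Smad2KO_Smad3het, 286 and 588 in Smad3KO, 289 and 602 in Smad2KO, and 195 and 536 in WT, and fell by 1.29 ± 0.14 in the other 3 (adjusted p = 0.00458, limma). Itm2a, a membrane protein of T cells, read 1848 and 2735 in Smad2KO_Smad3het, 5000 and 7244 in Smad3KO, 4669 and 6742 in Smad2KO, and 4402 and 6798 in WT. Its log2 ratios of −0.57 and −0.74 in Smad2KO_Smad3het lay on either side of the mean of −0.64 ± 0.05 in the other 3 (adjusted p = 0.00162, limma). The mean of the 2 probe sets was lower with TGF-b for all 10 genes in all 4 genotypes.

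Lists of genes were read by role, against 22.7% of kept genes higher and 32.1% lower in Smad2KO_Smad3het and a median mean log2 ratio of −0.04, with 1449 of the 3205 discordant. Calls in the other 3 genotypes stand beside the 4.54% higher and 3.36% lower of all genes tested there. Of 15 genes of TGF-b feedback, 5 were kept, 3 higher (Pmepa1, Tgfbr1 and Ski, a corepressor of Smads) and 2 lower (Ppm1a and Smurf2), with a median of 0.43. In the other 3 genotypes 6 of 14 tested were called higher and 0 lower. Of 21 receptors, ligands and Smads, 6 were kept, 3 higher (Tgfbr1, Bmpr2 and Tgfb1), 1 lower (Smad4) and 2 discordant, and 4 of 16 were called higher and 0 lower in the other 3. Bmpr2, the type II receptor for bone morphogenetic proteins, read 228 with and 117 without TGF-b in Smad2KO_Smad3het, 214 and 118 in Smad3KO, 475 and 141 in Smad2KO, and 556 and 97.3 in WT. The second probe set read 245 and 77.2 in Smad2KO_Smad3het and 9.52 to 20.8 on the other 6 arrays. Of 24 regulatory T cell genes, 7 were kept, 6 of them higher (Socs2, Capg, Ikzf4, Nt5e, Il2ra and Icos) and 1 lower (Tnfrsf9, at log2 ratios of −0.14 and −0.09), with a median of 0.93, and 8 of 18 were called higher and 1 lower in the other 3.

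Of 20 genes of IL-2 signalling and its suppressors, 11 were kept, 7 higher, 1 lower and 3 discordant, with a median of 0.29, and 9 of 19 were called higher and 2 lower in the other 3. Stat5b, a transcription factor of the IL-2 receptor, read 919 with and 478 without TGF-b in Smad2KO_Smad3het, 807 and 471 in Smad3KO, 1242 and 650 in Smad2KO, and 1340 and 595 in WT. Bcl2, a survival factor, read 593 and 415 in Smad2KO_Smad3het, 586 and 366 in Smad3KO, 1092 and 463 in Smad2KO, and 786 and 322 in WT. Both rose in the other 3, by 1.04 ± 0.12 (adjusted p = 0.00473, limma) and 1.06 ± 0.10 (adjusted p = 0.00227, limma). The lower member was Socs7, at −0.91 and −0.97 in Smad2KO_Smad3het, which read 278 and 522 there on a probe set that read 42.8 to 67.8 on the other 6 arrays. Of 27 integrin and adhesion genes, 10 were kept, 4 higher (Itgb5, Vim, Adam19 and Lgals1), 1 lower (Itgb1) and 5 discordant, and 8 of 17 were called higher and 0 lower in the other 3. Lgals1, the lectin galectin-1, read 635 and 449 in Smad2KO_Smad3het, 1770 and 815 in Smad3KO, 1476 and 711 in Smad2KO, and 4637 and 1006 in WT.

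Of 28 genes of T cell activation, 10 were kept, 1 higher (Nr4a3), 3 lower (Egr3, Slamf6 and Tnfsf11) and 6 discordant, and 4 of 27 were called higher and 12 lower in the other 3. Egr3, an early response transcription factor, read 1193 with and 1340 without TGF-b in Smad2KO_Smad3het, 2194 and 3207 in Smad3KO, 2868 and 3414 in Smad2KO, and 1971 and 3624 in WT. Of 18 genes of naive cells, 11 were kept, 4 higher, 5 lower and 2 discordant, with Foxo1 higher (1045 and 712 in Smad2KO_Smad3het, 552 and 304 in Smad3KO, 620 and 331 in Smad2KO, 706 and 318 in WT), and 7 of 16 were called higher and 2 lower in the other 3. Foxo1 is a transcription factor of quiescence and homing and rose by 1.03 ± 0.09 in the other 3 (adjusted p = 0.00227, limma). Of 16 Cdk inhibitor and Id genes, 6 were kept, 2 higher and 4 lower, and 2 of 12 were called higher and 0 lower in the other 3. Those higher in Smad2KO_Smad3het were Rbl2 and Id2, an inhibitor of E proteins that is a target of the pathway. Id2 read 1002 and 507 in Smad2KO_Smad3het, 1086 and 613 in Smad3KO, 1693 and 750 in Smad2KO, and 889 and 559 in WT, and its log2 ratios of 0.98 and 1.03 in Smad2KO_Smad3het stood beside a rise of 1.14 ± 0.12 in the other 3 (adjusted p = 0.00412, limma).

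Of 35 cell cycle genes, 21 were kept, 3 higher, 9 lower and 9 discordant, with a median of −0.09, and 0 of 34 were called higher and 2 lower in the other 3, near the share of all genes. The 9 lower genes were Aurkb, Ccna2, Ccnd2, Ccne1, Cdt1, Mcm5, Mcm7, Rrm1 and Rrm2, and all but Aurkb and Ccne1 had log2 ratios between −0.31 and −0.01. Ccne1, cyclin E1, read 795 with and 1689 without TGF-b in Smad2KO_Smad3het, 578 and 546 in Smad3KO, 592 and 834 in Smad2KO, and 857 and 618 in WT. Aurkb, a mitotic kinase, was the one of the 9 that was also called lower in the other 3, where it fell by 0.68 ± 0.14 (adjusted p = 0.0366, limma). Of 22 genes of glycolysis and hypoxia, 11 were kept, 1 higher, 5 lower and 5 discordant, and 1 of 19 was called higher and 4 lower in the other 3. Of 20 of cholesterol synthesis, 8 were kept, 2 higher, 3 lower and 3 discordant, and 1 of 17 was called higher and 1 lower in the other 3. Of 24 ribosomal protein genes, 9 were kept, 4 higher, 0 lower and 5 discordant, the 4 with log2 ratios of 0.06 to 0.24. In the other 3 genotypes 0 of 15 were called higher and 0 lower.

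Of 33 interferon-stimulated genes, 6 were kept, 4 higher, 1 lower and 1 discordant, and 2 of 20 were called higher and 5 lower in the other 3. Gbp2, an interferon-induced GTPase, read 1291 with and 1635 without TGF-b in Smad2KO_Smad3het, 454 and 681 in Smad3KO, 626 and 850 in Smad2KO, and 211 and 479 in WT. Of 18 Th17 genes, 4 were kept, 3 higher and 1 discordant, and 6 of 10 were called higher and 1 lower in the other 3. The 3 higher in Smad2KO_Smad3het were Irf4, at log2 ratios of 0.27 and 0.04, Il6st, at 0.44 and 0.37, and Rora, at 0.07 and at least 1.26. Of 14 Th2 genes, 3 were kept, 1 higher and 2 lower, and 4 of 9 were called higher and 0 lower in the other 3. None of the 26 Th1 and cytotoxic genes was kept in Smad2KO_Smad3het, while 5 of 20 tested were called higher and 9 lower in the other 3, so that response could not be read in this genotype.

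Genes were also picked on the WT pair, which had no part in the choice of members, and then read in Smad2KO_Smad3het. Of the 100 WT rises at 2-fold, 37 had both WT probe sets in use bright on either Smad2KO_Smad3het array. A gene could pass this filter through its higher array alone. The filter thus used the values then read, and the counts by direction are not independent of it. Their median log2 ratio was 0.63 in Smad2KO_Smad3het (quartiles 0.32 and 1.12), 1.27 in Smad3KO, 1.57 in Smad2KO and 1.80 in WT, where the picking raises it. The mean log2 ratio of the 2 probe sets was above 0 for 34 of the 37 in Smad2KO_Smad3het, 36 in Smad3KO and 37 in Smad2KO. That mean, and not each probe set, was at 2-fold for 12 in Smad2KO_Smad3het, 22 in Smad3KO and 32 in Smad2KO. Of the 35 WT falls, 19 were bright in Smad2KO_Smad3het, with medians of −0.66 in Smad2KO_Smad3het, −0.89 in Smad3KO, −1.04 in Smad2KO and −1.73 in WT. The mean of the 2 probe sets was below 0 for 18 of the 19 in Smad2KO_Smad3het and for 19 in each of the others. It was at 2-fold lower for 3 in Smad2KO_Smad3het, 8 in Smad3KO and 12 in Smad2KO. The order of the medians was the same for rises picked on the Smad2KO pair, at 0.88 in Smad2KO_Smad3het, 1.38 in Smad3KO, 1.73 in Smad2KO and 1.85 in WT over 34 genes, and for those picked on the Smad3KO pair, at 0.93 in Smad2KO_Smad3het, 1.46 in Smad3KO, 1.76 in Smad2KO and 2.02 in WT over 29 genes. In Smad2KO_Smad3het 3 of the WT rises were below 0: Socs3 at −0.44, Ssh1 at −0.21 and Twsg1, an extracellular modulator of bone morphogenetic proteins, at −1.16. Tmem38b, at 0.32, was the WT fall that was above 0. These medians carry no test, since the number of pairs allows none. The floor of the Smad2KO_Smad3het pair was 89.6, against 26.4 to 29.8 in the other pairs, and its signal range was compressed. Both set Smad2KO_Smad3het, whose medians were the smallest in size, apart from the other pairs. They did not follow the medians further. Among the other 3 pairs the floor was highest and the signal range narrowest in WT, whose medians were the largest in size. The part of floor and range in the medians was not tested.

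**Figure D4:**
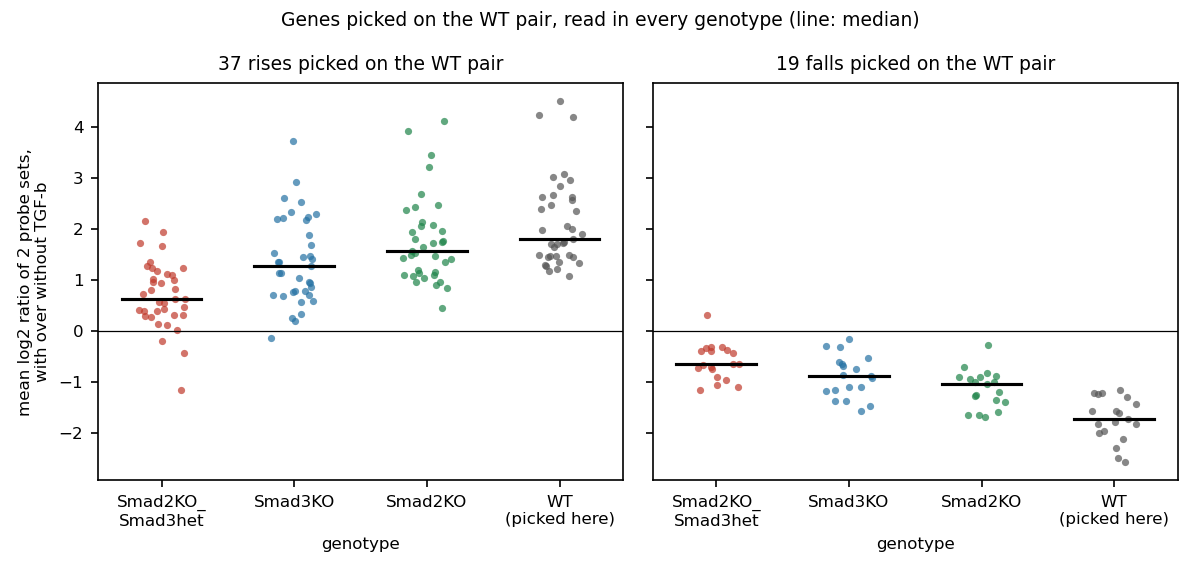
Mean log2 ratio with over without TGF-b of 2 probe sets (vertical axis) for 37 rises (left) and 19 falls (right), read in each genotype, with black lines at the medians. The genes were picked on the WT pair at 2-fold, with both probe sets bright on either Smad2KO_Smad3het array. The medians of the rises are 0.63 in Smad2KO_Smad3het, 1.27 in Smad3KO, 1.57 in Smad2KO and 1.80 in WT, and those of the falls are −0.66, −0.89, −1.04 and −1.73 in the same genotypes.

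A set of 34 genes was at 2-fold higher in both probe sets of Smad3KO, Smad2KO and WT alike. Of these, 22 were kept in Smad2KO_Smad3het, 19 were higher there in both probe sets, 9 of them at 2-fold, and 3 were discordant. The 10 that were higher without reaching 2-fold were Cpd, Hemk1, Il2rb, Lgals1, Ninj1, Nt5e, Pdgfb, Pmepa1, Rora and Tgfbr1. Rora had log2 ratios of 0.07 and at least 1.26. Its lesser ratio came from a probe set that read 262 and 249 in Smad2KO_Smad3het and 2.34 to 17.7 on the arrays of the other genotypes. The discordant ones were Malt1, a signalling protease of antigen receptors, with log2 ratios of −0.20 and 0.98, Socs3, with −1.27 and 0.13, and Timp2, an inhibitor of metalloproteases, with −1.75 and 1.36. The 12 that were not kept were Acvr2a, Aqp3, Egln3, Hbegf, Kctd14, Maf, Nek6, Rcan3, Skil, Tbc1d4, Treml2 and Zbtb20. Of 10 genes lower at 2-fold in all 3, 6 were kept, 5 were lower in both probe sets (AI504432, Bcl2l11, Plek, Slamf6 and Snx9), 0 of them at 2-fold, and 1, Slco4a1, was discordant at −1.42 and 0.79.

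Genes known from the pathway that had 1 bright probe set in Smad2KO_Smad3het are not among the 1756 and are given for orientation. Skil read 818 with and 246 without TGF-b in Smad2KO_Smad3het, 1566 and 563 in Smad3KO, 1636 and 382 in Smad2KO, and 1840 and 478 in WT. Smad7 read 280 and 139 in Smad2KO_Smad3het, 263 and 154 in Smad3KO, 372 and 130 in Smad2KO, and 336 and 153 in WT. Cish, a suppressor of cytokine signalling, read 2448 and 860 in Smad2KO_Smad3het, 2317 and 739 in Smad3KO, 2788 and 849 in Smad2KO, and 2826 and 808 in WT. All 3 were higher with TGF-b in each pair, by 1.73, 1.01 and 1.51 on the log2 scale in Smad2KO_Smad3het. Dusp4, a phosphatase of MAP kinases, had a log2 ratio of 1.33 in Smad2KO_Smad3het, 1.64 in Smad3KO, 1.80 in Smad2KO and 1.58 in WT. Foxp3 read 184 and 76.8 in Smad2KO_Smad3het, at least 2.05-fold, 85.4 and 17.6 in Smad3KO, 245 and 21.1 in Smad2KO, and 342 and 2.36 in WT. Il2, the growth factor itself, read 2766 and 3410 in Smad2KO_Smad3het, 1472 and 4538 in Smad3KO, 1337 and 4716 in Smad2KO, and 459 and 4315 in WT, with a log2 ratio of −0.30 in Smad2KO_Smad3het against −1.62, −1.82 and −3.23. Ifng and Tbx21 were under the floor on both Smad2KO_Smad3het arrays.

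The response of Smad2KO_Smad3het was set against the mean of the other 3 in a limma fit of all 8 arrays, with 2 residual degrees of freedom and the spread taken from Smad3KO, Smad2KO and WT. Of 10361 genes tested, 102 were called higher (0.984%) and 75 lower (0.724%). Without the WT pair both counts were 0 (2159 genes at an unadjusted p under 0.05), with no filter on dim genes they were also 0 (2579), and without the Smad2KO pair they were 5 and 8. Since that contrast holds the ratios that chose the members, it is no independent test of them, and it takes the spread of a single pair as that of the others, whose background was lower. For the genes shared by every genotype the difference in log2 ratio was −1.59 for Socs2, −1.41 for Irf8, −1.87 for Adam19, −0.72 for Vim, −0.12 for Mical1 and 0.23 for Igfbp4. The value for Igfbp4 rested on its second probe set, at 1.86 in Smad2KO_Smad3het, 0.11 in Smad3KO, 0.87 in Smad2KO and 2.38 in WT. On the brightest the log2 ratios were 1.96, 2.06, 2.09 and 2.57 in the same order. On each of the remaining bright probe sets, too, the ratio was smallest in Smad2KO_Smad3het.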

How the data were processed

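Total RNA (6 ug a sample) of 8 cultures (4 genotypes, 1 culture with TGF-b and 1 without) was hybridised to single-colour Affymetrix arrays. The authors deposited linear intensities, 1 a probe set, made with GCOS 1.4 (GeneChip Operating Software), per the submitters' processing notes. The sources used here do not give its algorithm, background handling or scaling. Precision is limited by the number of arrays.

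The platform annotation names 1 gene for 34945 of 45101 probe sets. Those with several genes (932) and those unnamed here or controls (9224) were not read. All 8 arrays were brought to an equal 2% trimmed mean, by factors of 2.22 and 1.98 for Smad2KO_Smad3het with and without TGF-b and 0.726 to 1.07 for the other 6. Values under the median of a pair were raised to it before taking log2. Genes with 2 or more probe sets above 2 times that floor on either array were kept and read from the 2 with the highest mean signal over the pair. Folds against a value under the floor are lower bounds, written "at least".

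The mean response of WT, Smad2KO and Smad3KO, and the difference of Smad2KO_Smad3het from it, were fitted to the log2 ratios of the pairs with limma 3.58.1 in R 4.3.3 (trend and robust settings, Benjamini-Hochberg adjustment at 0.05 over all genes tested). P-values measure the spread between genotypes, which holds real differences between them too. Named were the 10 highest rises and falls by lesser ratio, the 10 members per direction with the smallest limma p, members of 16 lists, genes near the 2-fold line, all genes at 2-fold, and a fixed set of pathway genes. Members, lists and rules were chosen with earlier results of these data known. Alternatives were other scalings, floors, filters and probe sets, limma settings and leaving out a pair. Figures used matplotlib 3.10.9.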

Additional observations from a re-analysis of the deposited data

Results flagged for a closer look

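In the fit that set the Smad2KO_Smad3het response against the mean of WT, Smad2KO and Smad3KO, 9 named genes were past the adjusted threshold of 0.05 with the settings used. All 9 lost their calls without the WT pair or with no filter on dim genes, where 0 of all genes were called, and the single Smad2KO_Smad3het pair has no spread of its own. Of the 9, 8 were chosen by the size of their Smad2KO_Smad3het ratio, so their differences are given as values with no p. The difference in log2 ratio was 3.31 for Itgb5, 1.82 for Tnfrsf19, 1.78 for Nr6a1, 1.67 for Cdk16 and 1.24 for Zdhhc5, where Smad2KO_Smad3het was higher. It was −2.30 for Ackr2, −1.73 for Snhg10 and −1.41 for Wdr73, where Smad2KO_Smad3het was lower. Both probe sets of Tnfrsf19, Nr6a1 and Ackr2, and the second of Itgb5, were dim (under 2 times the floor) on all arrays of the other genotypes. Flooring brings such ratios toward 0 and narrows their spread, so there the difference was not taken from a measured response. Unused bright probe sets of Cdk16 and Snhg10, given above, did not share the differences of these 2 genes.

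Nt5e was named for its small p in the other 3 genotypes, and both of its probe sets were higher with TGF-b in Smad2KO_Smad3het. Its difference was −3.02 on the log2 scale, the mean response being 0.93 in Smad2KO_Smad3het and 3.94 in the other 3. Its 2 probe sets disagreed in size in Smad2KO_Smad3het, at 0.13 and at least 1.72. Its call was also lost with the floor at the 75th percentile. Of the 8 genes chosen by size, 1 kept its call without the Smad2KO pair.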

How the results depend on the processing

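Median centring and the use of all bright probe sets left the counts in Smad2KO_Smad3het within 1.5 times of those reported, and the other alternatives moved at least 1 of them further. For genes at 2-fold higher and lower, quantile normalization gave 95 and 91, a floor at the 25th percentile 113 and 68, a floor at the 75th percentile 7 and 1, the brightest probe set alone 796 and 655, 4 times the floor 11 and 4, probe sets bright on both arrays 8 and 2, and the 3 brightest probe sets 2 and 0. Genes kept and concordant were 6346 and 3349 with the floor at the 25th percentile, 1130 and 643 at the 75th, 1606 and 902 at 4 times the floor, and 1039 and 325 with 3 probe sets; 9436 were kept with 1. Of the 30 rises, 30 were at 2-fold again under quantile normalization, 26 under median centring and 29 with the floor at the 25th percentile.

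In the mean response of the other 3, higher and lower counts were 136 and 75 with no filter on dim genes and 266 and 150 without trend and robust settings, and the brightest probe set alone called 491 lower. Leaving out a pair gave 154 to 621 higher and 92 to 553 lower. In the difference of Smad2KO_Smad3het from the mean, quantile normalization gave 1211 and 1263, median centring 57 and 44, the floor at the 25th percentile 53 higher, the brightest probe set 273 and 291, probe sets chosen on the other 6 arrays 48 and 34, no filter 0 and 0 (2579 at an unadjusted p under 0.05), 4 times the floor 183 and 173, and leaving out a pair 0 to 211 and 0 to 246. The difference for Mical1 was 0.86 under quantile normalization, against −0.12. The cause of these moves was not tested. Every fit paired the arrays of a genotype through their ratio, and the labels give no replicate numbers for a further block. On single arrays a signal under the floor bounds a change and does not measure it.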
